A study of Homo sapiens with 12 samples.

Results

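The TGF-beta and BMP signalling genes were 37 genes listed by symbol, and they were followed in HT144 melanoma cells after silencing of CITED1. Probes annotated to these symbols were found for 36 genes, and the 68 probes were averaged to 1 value per gene. No probe carried the symbol BMPR1A, a type I BMP receptor, in the annotation used, so it is not analysed here. The 36 genes were set against the 20045 genes with a named probe on the Illumina HT-12 array. The HT144 line comes from a human melanoma and is kept as an established culture, and its cells received siRNA transiently with a lipid reagent 48 h before RNA was collected. The 3 groups of 4 arrays were siCITED1#1 and siCITED1#3, which are different siRNAs against CITED1, and siNEG, a control siRNA without a target. The siRNAs against CITED1 share the siNEG arrays. Separate wells plated together, at the same passage, served as replicates, so a p-value here covers well-to-well spread within 1 plating of 1 cell line.

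TGF-beta, activin and BMP ligands bind pairs of type II and type I serine/threonine kinase receptors at the cell surface. The type I receptor phosphorylates a receptor SMAD (SMAD2 and SMAD3 after TGF-beta or activin, SMAD1 and SMAD5 after BMP), which joins SMAD4 and enters the nucleus to regulate target genes. CITED1 does not bind DNA itself and is known as a co-activator for SMAD4. In melanoma, TGF-beta signalling is known for its ties to invasion and to the loss of pigmentation.

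The promoters of 5 of these genes are shown because their genes are among those that differed below, including a TGF-beta receptor, a BMP receptor and 3 target genes. Each is the 250 bases before the transcription start in RefSeq on GRCh38.p14, on the strand of the gene, and the most upstream start was taken where a gene had several. Capitals mark the letters CAGAC, a SMAD binding element, or GTCTG, which is the same element on the other strand, and GGCGCC, a BMP-type SMAD site that reads alike on both strands. These letters do not overlap each other in the sequences shown.
TGFBR2: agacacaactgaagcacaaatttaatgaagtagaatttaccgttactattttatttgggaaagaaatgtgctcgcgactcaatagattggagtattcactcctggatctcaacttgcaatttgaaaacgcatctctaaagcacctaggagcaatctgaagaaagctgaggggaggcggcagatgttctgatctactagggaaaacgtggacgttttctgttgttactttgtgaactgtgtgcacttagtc
BMPR2: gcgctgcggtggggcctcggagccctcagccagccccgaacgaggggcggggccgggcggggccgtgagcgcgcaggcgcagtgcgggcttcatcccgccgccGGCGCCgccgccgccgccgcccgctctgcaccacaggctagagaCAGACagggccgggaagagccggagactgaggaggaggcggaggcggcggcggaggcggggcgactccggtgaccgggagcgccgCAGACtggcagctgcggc
ID2: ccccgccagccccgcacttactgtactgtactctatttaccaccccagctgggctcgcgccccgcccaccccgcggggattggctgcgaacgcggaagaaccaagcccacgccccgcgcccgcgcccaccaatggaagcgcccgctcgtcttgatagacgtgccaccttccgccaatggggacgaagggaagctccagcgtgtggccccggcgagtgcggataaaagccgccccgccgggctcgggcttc
ID3: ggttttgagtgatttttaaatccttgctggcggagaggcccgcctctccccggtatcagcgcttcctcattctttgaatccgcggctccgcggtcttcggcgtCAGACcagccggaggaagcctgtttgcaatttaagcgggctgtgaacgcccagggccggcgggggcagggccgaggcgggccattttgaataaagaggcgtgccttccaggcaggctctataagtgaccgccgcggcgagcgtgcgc
PMEPA1: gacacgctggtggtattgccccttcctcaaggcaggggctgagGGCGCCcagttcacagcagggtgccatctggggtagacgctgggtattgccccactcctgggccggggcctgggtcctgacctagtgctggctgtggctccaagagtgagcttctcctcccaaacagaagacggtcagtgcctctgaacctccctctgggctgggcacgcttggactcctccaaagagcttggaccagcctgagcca
The TGFBR2 stretch lies at chr3:30606106-30606355 (plus strand) and the BMPR2 stretch at chr2:202376077-202376326 (plus strand). Those of ID2, ID3 and PMEPA1 lie at chr2:8681806-8682055 (plus strand), chr1:23559502-23559751 (minus strand) and chr20:57711473-57711722 (minus strand). BMPR2 held CAGAC at 2 places and GGCGCC at 1, ID3 held CAGAC at 1 place and PMEPA1 held GGCGCC at 1, while neither was found in these letters before TGFBR2 or ID2. Before other starts of PMEPA1, the stretches at chr20:57690687-57690936 and chr20:57710578-57710827 held CAGAC at 1 place each. The PMEPA1 stretch at chr20:57710016-57710265 held neither. Among all 35116 promoter stretches of this length, 38% held CAGAC on either strand and 16.4% held GGCGCC. The promoter table held 74 stretches for 36 of the listed genes, and of these stretches 31 (41.9%) held CAGAC and 17 (23%) held GGCGCC. A match describes the letters only.

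The deposited log2 values had been centred by probe and by array. A value of 0 is therefore the mean of a probe over the 12 arrays, and differences between groups can be read but levels cannot. CITED1 was lower in both siRNA groups, by 0.64 ± 0.05 (SE) on the log2 scale with siCITED1#1 (adjusted p = 7.34e-07) and by 0.75 ± 0.05 with siCITED1#3 (adjusted p = 7.02e-07), and the remaining levels did not differ past the threshold between the siRNAs (0.11 ± 0.05, adjusted p = 0.275). The array siNEG replicate 1 stood apart on the third principal component, at 21.9 against -9.56 to 5.88 for the other arrays, and counts without it are given below. Melanocytic genes (5 measured) were on average higher with siCITED1#1, where their mean lay at 0.30 to 0.45, than with siCITED1#3 (-0.15 to -0.05) or siNEG (-0.40 to -0.24), and 4 of the 5 passed the test with siCITED1#1 and 2 with siCITED1#3. Of all genes, 9.84% passed with siCITED1#1 and 4.35% with siCITED1#3. PMEL differed from siNEG by -0.20 with siCITED1#3 and did not pass. SOX10 differed by -0.0017 with siCITED1#1 and 0.07 with siCITED1#3, and passed with neither. Of 10 proliferation genes, all 10 stood below siNEG with siCITED1#1 and 9 passed, while 9 stood below it with siCITED1#3 and 1 passed (5 had an unadjusted p under 0.05 by limma), with means of -0.37 to -0.28 with siCITED1#1, 0.03 to 0.07 with siCITED1#3 and 0.17 to 0.28 with siNEG. None of 4 keratinocyte, 3 immune or 3 endothelial markers passed in any comparison by limma. Within each single comparison, 0 or 1 gene of each of these lists had an unadjusted p under 0.05. The share of all genes under that unadjusted cut was not counted, here or below. Of 6 fibroblast markers COL1A2 alone passed, higher with siCITED1#3 than in both other groups. The part of these shifts in the results below was not tested, and in RNA from whole wells fewer cells of a type and less RNA per cell cannot be told apart.

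With siCITED1#1 few of the 36 genes passed, while 10 had an unadjusted p under 0.05 by limma. These 10 cannot be set against all genes, as the share of all genes under that cut was not counted. ID2, a dominant-negative helix-loop-helix factor and a known BMP target, rose 1.54-fold, and ACVR2A, a type II activin receptor, rose 1.13-fold. SMAD3, the receptor SMAD of TGF-beta and activin, fell 1.16-fold. These 3 of 36 genes (8.33%) passed an adjusted p of 0.05 by limma, against 9.84% of all genes tested (4.82% higher and 5.02% lower), so the share was near the background. The median absolute difference was 0.09 over the 36 genes and 0.06 over all genes. Without siNEG replicate 1 the count was 2 of 36, ID2 and SMAD3, against 8.45% of all genes.

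With siCITED1#3 more of the 36 genes passed, 3 receptors among them, and 13 had an unadjusted p under 0.05 by limma. For the unadjusted cut the share of all genes was not counted. TGFBR2 and TGFBR3, which bind TGF-beta at the surface, rose 1.46-fold and 1.30-fold, and FST, ID3 and TGFB3 rose 1.14-fold to 1.22-fold. BMPR2, the type II receptor of BMPs, fell 1.38-fold and PMEPA1, a TGF-beta target that restrains the pathway, fell 1.18-fold. These were 7 of 36 genes (19.4%), 5 higher and 2 lower, against 4.35% of all genes tested (2.44% higher and 1.91% lower). The median absolute difference was 0.09, against 0.05 over all genes. Without siNEG replicate 1 the count was 5 of 36, namely TGFBR2, TGFBR3, FST, ID3 and BMPR2, against 4.77% of all genes.

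**Figure D1:**
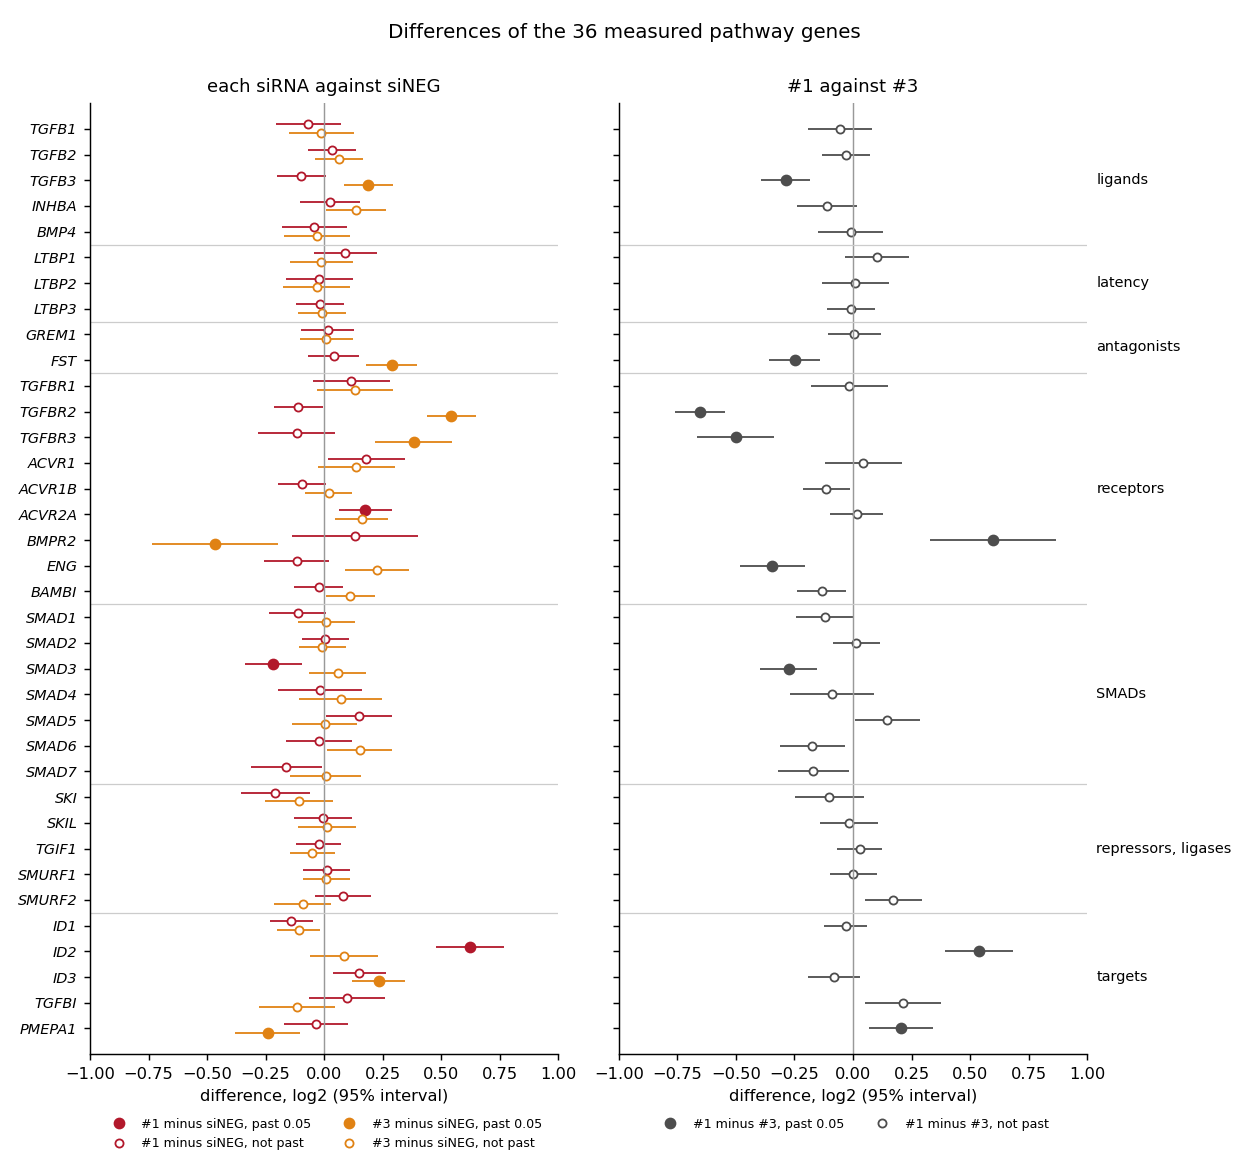
Differences on the log2 scale with 95% intervals (horizontal axis) for the 36 genes in order of role (vertical axis). On the left each siRNA is set against siNEG and on the right siCITED1#1 against siCITED1#3, with filled points for an adjusted p under 0.05. TGFBR2 and TGFBR3 stand to the right of 0 with siCITED1#3 (0.54 and 0.38), BMPR2 to the left (-0.47), and ID2 to the right with siCITED1#1 (0.62).

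Among the ligands, TGFB3, one of the TGF-beta isoforms, was the only one of 5 that passed any test. Its values were -0.08, -0.21, -0.14 and -0.08 on the siCITED1#1 arrays, 0.10, 0.16, 0.20 and 0.17 on the siCITED1#3 arrays, and -0.04, -0.07, -0.07 and 0.06 on the siNEG arrays. All 4 siCITED1#1 arrays lay below and all 4 siCITED1#3 arrays above every siNEG array. The difference was 0.19 ± 0.05 with siCITED1#3 (adjusted p = 0.0386) and -0.10 ± 0.05 with siCITED1#1 (adjusted p = 0.294). For these 2 comparisons, and for every other in which 4 arrays of a group lay wholly to one side of 4 arrays of another, the two-sided exact permutation p was 0.0286, the smallest that 4 against 4 arrays allow. The TGFB3 call with siCITED1#3 was lost when any of 7 single arrays was left out (siNEG replicates 1, 2 and 3, siCITED1#1 replicate 3 and siCITED1#3 replicates 2, 3 and 4), with adjusted p-values of 0.0511 to 0.116. TGFB1, TGFB2, INHBA (the subunit of activin A) and BMP4 differed from siNEG by -0.07 to 0.14 with either siRNA and did not pass. The latent TGF-beta binding proteins LTBP1, LTBP2 and LTBP3, which tether the inactive ligand to matrix, differed by -0.03 to 0.09 and did not pass, and none had an unadjusted p under 0.05 by limma.

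FST encodes follistatin, a secreted protein that traps activins. The FST values were 0.00031, -0.14, -0.11 and -0.03 with siCITED1#1, 0.23, 0.17, 0.12 and 0.19 with siCITED1#3, and -0.02, -0.19, -0.14 and -0.10 with siNEG. The siCITED1#3 arrays were all higher than those of both other groups, whose values overlapped. FST was 0.29 ± 0.05 higher with siCITED1#3 (1.22-fold, adjusted p = 0.00271), and 0.04 ± 0.05 higher with siCITED1#1, which did not pass (adjusted p = 0.767). GREM1, a secreted BMP antagonist, differed by 0.01 with each siRNA (adjusted p = 0.935 with siCITED1#1 and 0.973 with siCITED1#3), and its 2 probes had opposite signs in each comparison with siNEG.

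With siCITED1#3, 3 of the 9 measured receptors and co-receptors passed (33.3%, against 4.35% of all genes), beside 2 of 5 targets (40%), 1 of 5 ligands (20%) and 1 of 2 antagonists (50%). Of the 9 receptors, 8 were above siNEG with this siRNA and BMPR2 alone was below, while with siCITED1#1 4 were above and 5 below and ACVR2A alone passed. TGFBR2, the type II receptor that binds TGF-beta and starts the signal, stood at -0.24, -0.24, -0.27 and -0.26 with siCITED1#1, at 0.32, 0.38, 0.41 and 0.49 with siCITED1#3 and at -0.09, -0.15, -0.24 and -0.10 with siNEG. The siCITED1#3 arrays were all above the siNEG arrays, and the siCITED1#1 arrays, with the narrowest spread of the 3 groups (SD 0.02, n = 4), were all below them, though the nearest arrays of each group both rounded to -0.24. TGFBR2 rose by 0.54 ± 0.05 with siCITED1#3 (adjusted p = 4.39e-06), and the siCITED1#1 difference of -0.11 ± 0.05 did not pass (adjusted p = 0.218). TGFBR3, or betaglycan, presents TGF-beta to TGFBR2. It stood at -0.18, -0.25, -0.18 and -0.21 with siCITED1#1, at 0.33, 0.26, 0.32 and 0.27 with siCITED1#3 and at -0.11, 0.20, -0.12 and -0.32 with siNEG. The siNEG arrays were widely spread (SD 0.22, n = 4) and overlapped those of siCITED1#1, whereas every siCITED1#3 array was above them. The difference was 0.38 ± 0.08 with siCITED1#3 (1.30-fold, adjusted p = 0.00731) and -0.12 ± 0.08 with siCITED1#1 (adjusted p = 0.466).

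Endoglin, encoded by ENG, is a co-receptor for TGF-beta and BMP ligands. ENG stood at -0.22, -0.12, -0.23 and -0.05 with siCITED1#1, at 0.15, 0.03, 0.23 and 0.35 with siCITED1#3 and at -0.10, -0.05, -0.03 and 0.04 with siNEG. One siCITED1#3 array fell inside the siNEG range, and neither siRNA passed against siNEG, with 0.23 ± 0.07 for siCITED1#3 (adjusted p = 0.0627) and -0.12 ± 0.07 for siCITED1#1 (adjusted p = 0.349). BAMBI, a pseudoreceptor without a kinase domain, differed by -0.02 with siCITED1#1 and 0.11 with siCITED1#3 and did not pass. Endoglin is best known from endothelial cells. Like ENG, the 3 endothelial markers above did not pass with either siRNA against siNEG. The mean over them lay at -0.05 to 0.05 with siCITED1#1, 0.0023 to 0.09 with siCITED1#3 and -0.10 to 0.02 with siNEG. Of these markers, KDR stood 0.15 above siNEG with siCITED1#1 and 0.17 with siCITED1#3, while PECAM1 and CDH5 changed sign between the siRNAs. A tie between ENG and these markers was not tested.

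BMPR2, the type II receptor for BMPs, moved the other way from TGFBR2 and TGFBR3. It stood at 0.03, 0.15, 0.32 and 0.47 with siCITED1#1, at -0.30, -0.26, -0.44 and -0.41 with siCITED1#3 and at -0.19, 0.48, 0.33 and -0.17 with siNEG. The siNEG arrays fell apart into a low pair (replicates 1 and 4) and a high pair (replicates 2 and 3), yet every siCITED1#3 array was below all of them. BMPR2 was 0.47 ± 0.13 lower with siCITED1#3, an adjusted p of 0.0486 by limma that lay just inside the threshold. The call was lost without any of 8 single arrays (siNEG replicates 2 and 3, siCITED1#1 replicates 2 and 3 and each of the siCITED1#3 replicates), at adjusted p-values of 0.0599 to 0.154, and the difference was -0.56 with an adjusted p of 0.012 without siNEG replicate 1. With siCITED1#1, the BMPR2 difference was 0.13 ± 0.13 (adjusted p = 0.67).

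ACVR2A binds activins and some BMPs, and it was higher with both siRNAs. Its values were -0.0032, 0.01, 0.15 and 0.10 with siCITED1#1, 0.14, -5.1e-05, 0.0018 and 0.05 with siCITED1#3, and -0.07, -0.15, -0.05 and -0.18 with siNEG. Every siCITED1 array lay above every siNEG array. The difference was 0.18 ± 0.05 with siCITED1#1 (adjusted p = 0.0447) and 0.16 ± 0.05 with siCITED1#3, which did not pass (adjusted p = 0.118). The ACVR2A call with siCITED1#1 was lost without any of 8 arrays (siNEG replicates 1, 2 and 4, siCITED1#1 replicates 3 and 4 and siCITED1#3 replicates 2, 3 and 4), at adjusted p-values of 0.0517 to 0.144. The type I receptors TGFBR1, ACVR1 and ACVR1B did not pass. TGFBR1 and ACVR1 differed by 0.12 and 0.18 with siCITED1#1 and by 0.13 and 0.14 with siCITED1#3, and ACVR1B by -0.09 with siCITED1#1 and 0.02 with siCITED1#3.

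**Figure D2:**
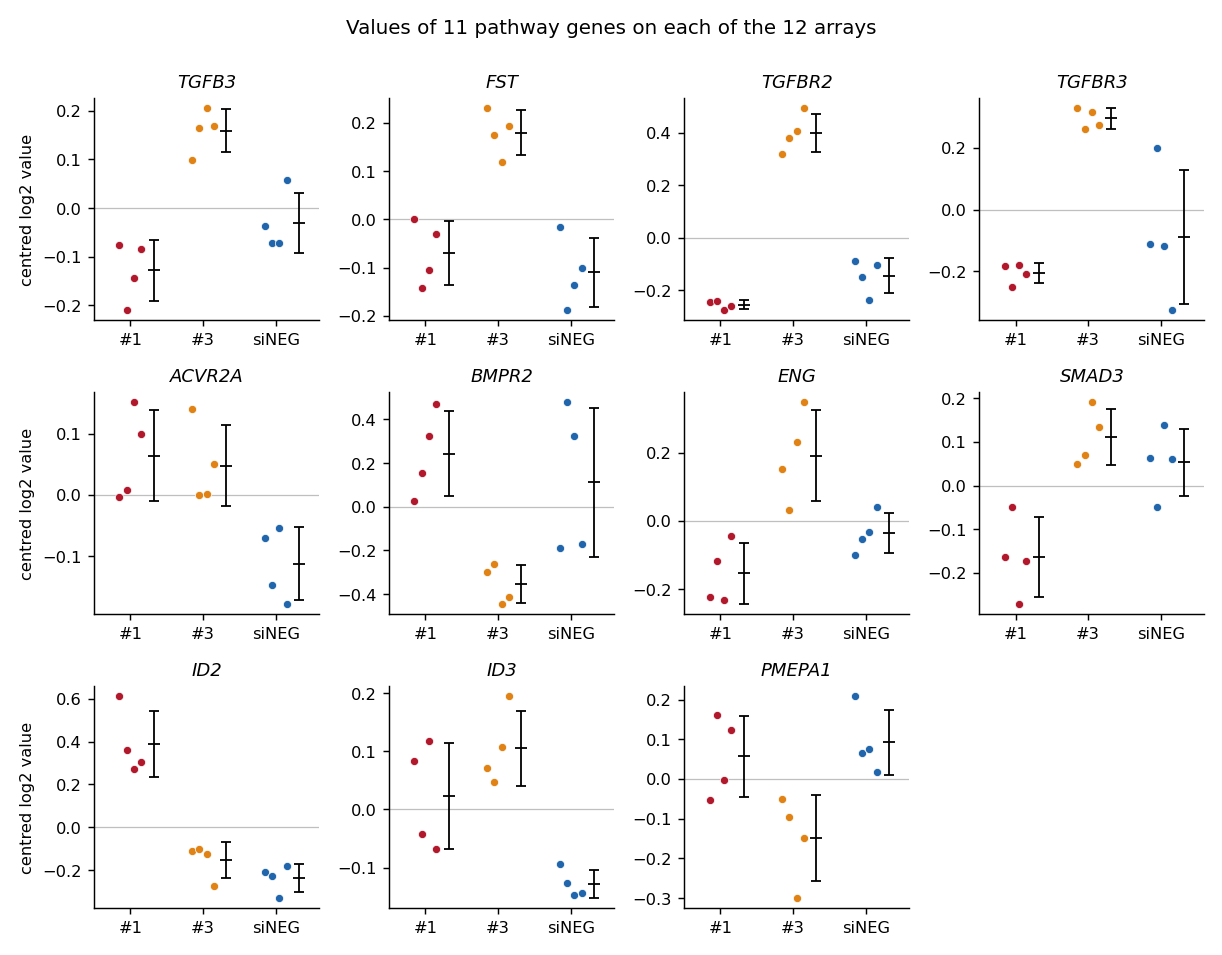
Centred log2 values (vertical axis, own scale per panel) of the 11 genes that passed in at least 1 comparison, on the 4 arrays each of siCITED1#1, siCITED1#3 and siNEG, with means and SDs as bars. The siCITED1#3 arrays stand above the other groups for TGFBR2 (0.32 to 0.49) and TGFBR3 (0.26 to 0.33) and below them for BMPR2 (-0.44 to -0.26), and the siCITED1#1 arrays stand above the others for ID2 (0.27 to 0.61).

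Of the 7 SMADs, SMAD3 alone passed, and with siCITED1#1 only. SMAD3 stood at -0.16, -0.05, -0.27 and -0.17 with siCITED1#1, at 0.05, 0.07, 0.19 and 0.13 with siCITED1#3 and at 0.06, -0.05, 0.14 and 0.06 with siNEG. The groups of siCITED1#1 and siNEG touched through 1 array of each near -0.05, and the two-sided exact permutation p was 0.0571. SMAD3 fell by 0.22 ± 0.06 with siCITED1#1 (adjusted p = 0.0214) and differed by 0.06 ± 0.06 with siCITED1#3 (adjusted p = 0.748). The siCITED1#1 call was lost without siNEG replicate 3 or 4 or siCITED1#1 replicate 3 or 4, at adjusted p-values of 0.0512 to 0.0804. SMAD4, the common partner that CITED1 is known to bind, differed by -0.02 ± 0.08 with siCITED1#1 (95% interval -0.20 to 0.16) and by 0.07 ± 0.08 with siCITED1#3 (95% interval -0.11 to 0.25), measured by 1 probe. SMAD2, the other TGF-beta receptor SMAD, lay within 0.01 of siNEG with both siRNAs. The BMP receptor SMADs SMAD1 and SMAD5 differed by -0.11 and 0.15 with siCITED1#1 and by 0.01 and 0.0023 with siCITED1#3, and 1 of the 3 SMAD5 probes (ILMN_1674551) was called with siCITED1#1 on its own (0.26, adjusted p = 0.0292) while another (ILMN_1761994) stood at -0.12. The inhibitory SMADs, SMAD6 and SMAD7, differed by -0.02 and -0.16 with siCITED1#1 and by 0.15 and 0.01 with siCITED1#3 and did not pass.

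The nuclear repressors and ubiquitin ligases held no call in any of the 4 comparisons by limma, and 2 of the 5 genes (SKI and SMURF2) had an unadjusted p under 0.05 in some comparison. SKI, which recruits repressors to SMADs, was the gene of this role with the widest difference, -0.21 ± 0.07 with siCITED1#1 (adjusted p = 0.0725). SKIL and TGIF1, repressors of the same targets, differed by -0.05 to 0.01 with either siRNA. SMURF1 and SMURF2, ligases that mark receptors and SMADs for degradation, differed by 0.01 and 0.08 with siCITED1#1 and by 0.01 and -0.09 with siCITED1#3, and the 2 probes of SMURF1 had opposite signs (-0.14 and 0.16 with siCITED1#1).

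The targets included ID2, the gene with the widest difference from siNEG among the 36 with siCITED1#1. ID proteins block helix-loop-helix factors and are direct targets of BMP signalling in many cell types. ID2 stood at 0.61, 0.36, 0.27 and 0.31 with siCITED1#1, at -0.11, -0.10, -0.12 and -0.28 with siCITED1#3 and at -0.21, -0.23, -0.33 and -0.18 with siNEG. The siCITED1#1 arrays were all higher than those of both other groups, which overlapped. ID2 rose by 0.62 ± 0.07 with siCITED1#1 (adjusted p = 1.03e-05), and with siCITED1#3 the difference was 0.08 ± 0.07 (95% interval -0.06 to 0.23, adjusted p = 0.678).

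ID3 was higher with each siRNA and passed with one. It stood at 0.08, -0.04, 0.12 and -0.07 with siCITED1#1, at 0.07, 0.05, 0.11 and 0.19 with siCITED1#3 and at -0.09, -0.13, -0.15 and -0.14 with siNEG. The siNEG arrays were below every siCITED1 array. The ID3 difference was 0.23 ± 0.05 with siCITED1#3 (1.18-fold, adjusted p = 0.0163, or 0.0598 without siCITED1#3 replicate 4) and 0.15 ± 0.05 with siCITED1#1 (adjusted p = 0.0928). ID1, the third ID gene listed, had the opposite sign to ID3, with -0.14 ± 0.04 with siCITED1#1 (adjusted p = 0.0531) and -0.11 ± 0.04 with siCITED1#3 (adjusted p = 0.23), and did not pass, although its siNEG arrays lay above every siCITED1 array.

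PMEPA1, a membrane protein that TGF-beta induces and that keeps receptor SMADs from the receptor, stood at -0.05, 0.16, -0.0033 and 0.12 with siCITED1#1, at -0.05, -0.10, -0.30 and -0.15 with siCITED1#3 and at 0.21, 0.07, 0.08 and 0.02 with siNEG. All siCITED1#3 arrays were below the siNEG arrays, while those of siCITED1#1 overlapped both groups. PMEPA1 fell by 0.24 ± 0.06 with siCITED1#3 (adjusted p = 0.0439) and differed by -0.04 ± 0.06 with siCITED1#1 (adjusted p = 0.855). The siCITED1#3 call was kept only without siCITED1#1 replicate 1 or 2 or siCITED1#3 replicate 1, and was lost without any of the other 9 arrays, at adjusted p-values of 0.0515 to 0.147. TGFBI, a matrix protein named for its induction by TGF-beta, differed by 0.10 with siCITED1#1 and -0.12 with siCITED1#3 and did not pass.

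The siRNAs also differed from each other. TGFBR2, TGFBR3, ENG, TGFB3, SMAD3 and FST were lower and BMPR2, ID2 and PMEPA1 were higher with siCITED1#1 than with siCITED1#3. These were 9 of 36 genes (25%), against 12.4% of all genes tested (6.09% higher and 6.28% lower), and the median absolute difference was 0.11, against 0.06 over all genes. TGFBR2 was 0.65 ± 0.05 lower (1.57-fold, adjusted p = 2.02e-07), TGFBR3 0.50 ± 0.08 lower (1.41-fold, adjusted p = 0.000284) and ENG 0.34 ± 0.07 lower (1.27-fold, adjusted p = 0.00162) with siCITED1#1. BMPR2 was 0.60 ± 0.13 higher (1.51-fold, adjusted p = 0.00415) and ID2 0.54 ± 0.07 higher (1.45-fold, adjusted p = 4.22e-05) with siCITED1#1. TGFB3, SMAD3 and FST were 0.29, 0.28 and 0.25 lower with siCITED1#1, at adjusted p-values of 0.00074, 0.00344 and 0.00344. For these 8 genes the arrays of siCITED1#1 and siCITED1#3 did not overlap. The same held for ACVR1B, BAMBI and TGFBI, which did not pass. How many of all genes separate in this way was not counted. PMEPA1 was 0.21 ± 0.06 higher with siCITED1#1 (adjusted p = 0.0469) with overlapping arrays, a two-sided exact permutation p of 0.0571, and a call that was kept only without siNEG replicate 1, siCITED1#1 replicate 1 or siCITED1#3 replicate 1 (adjusted p-values of 0.0528 to 0.162 without any other array). ACVR2A and ID3 differed between the siRNAs by 0.02 ± 0.05 (95% interval -0.10 to 0.13) and -0.08 ± 0.05 (95% interval -0.19 to 0.03). The proliferation genes also differed between the siRNAs, with all 10 lower with siCITED1#1 and 7 past the threshold, and their part in these differences was not tested.

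With the 8 siCITED1 arrays taken as one group against the 4 siNEG arrays, none of the 36 genes passed by limma, while 7 had an unadjusted p under 0.05 (ID3, ACVR2A, ID1, ID2, SKI, FST and ACVR1). Of all genes tested, 1.92% passed the adjusted threshold (1.05% higher and 0.868% lower), while the share with an unadjusted p under 0.05 was not counted. In this fit a difference between the siRNAs counts as spread. ID3 was 0.19 ± 0.05 higher in siCITED1 cells (adjusted p = 0.0576) and ACVR2A 0.17 ± 0.04 higher (adjusted p = 0.0765), and ID1 was 0.12 ± 0.04 lower (adjusted p = 0.103). For these 3 genes all 8 siCITED1 arrays lay to one side of the siNEG arrays. The two-sided exact permutation p of 0.00404, the smallest that 8 against 4 arrays allow, follows from that separation and adds nothing to it. The share of all genes so separated was not counted, so the separation cannot be read as particular to these genes. When the siRNA differences were averaged in the fit with 3 groups instead, 5 of the 36 passed, against 5.76% of all genes, and these were ID2 (0.35), TGFBR2 (0.22), ID3 (0.19), ACVR2A (0.17) and FST (0.16), all higher.

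Probes of the same gene did not always move alike. TGFBR2 had 3 probes, of which ILMN_1726245 and ILMN_2384241 were 0.72 and 0.74 higher with siCITED1#3 and ILMN_1744862 was 0.17 higher and did not pass (adjusted p = 0.381). Both BMPR2 probes passed with siCITED1#3 (-0.56 and -0.37), and both ID2 probes passed with siCITED1#1 (0.48 and 0.77). With siCITED1#3 the ID2 probes had opposite signs and neither passed. ILMN_1793990 lay at -0.05 (adjusted p = 0.934) and ILMN_2086095 at 0.22 (adjusted p = 0.198). Of the 4 PMEPA1 probes only ILMN_1734276 passed with siCITED1#3 (-0.46, adjusted p = 0.0039), and the others lay at -0.30, -0.17 and -0.04. One FST probe passed with siCITED1#3 (ILMN_1712896, 0.35) and the other, at 0.23, had an adjusted p of 0.0526. TGFB3 had a single probe (ILMN_1687652), which did not pass with siCITED1#3 in the fit to all probes (0.19, adjusted p = 0.117). No ACVR2A probe passed with siCITED1#1 on its own, where they lay at 0.19 and 0.17, although 1 of them, ILMN_2152711, passed with siCITED1#3 (0.26, adjusted p = 0.0357). ACVR1B, which did not pass as a gene, had 1 of its 4 probes called between the siRNAs (ILMN_2243308, 0.27 lower with siCITED1#1, adjusted p = 0.0371). In all, 4, 9 and 13 of the 68 probes passed with siCITED1#1, with siCITED1#3 and between the siRNAs (5.88%, 13.2% and 19.1%), against 6.04%, 2.54% and 7.46% of all 47315 probes.

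**Figure D3:**
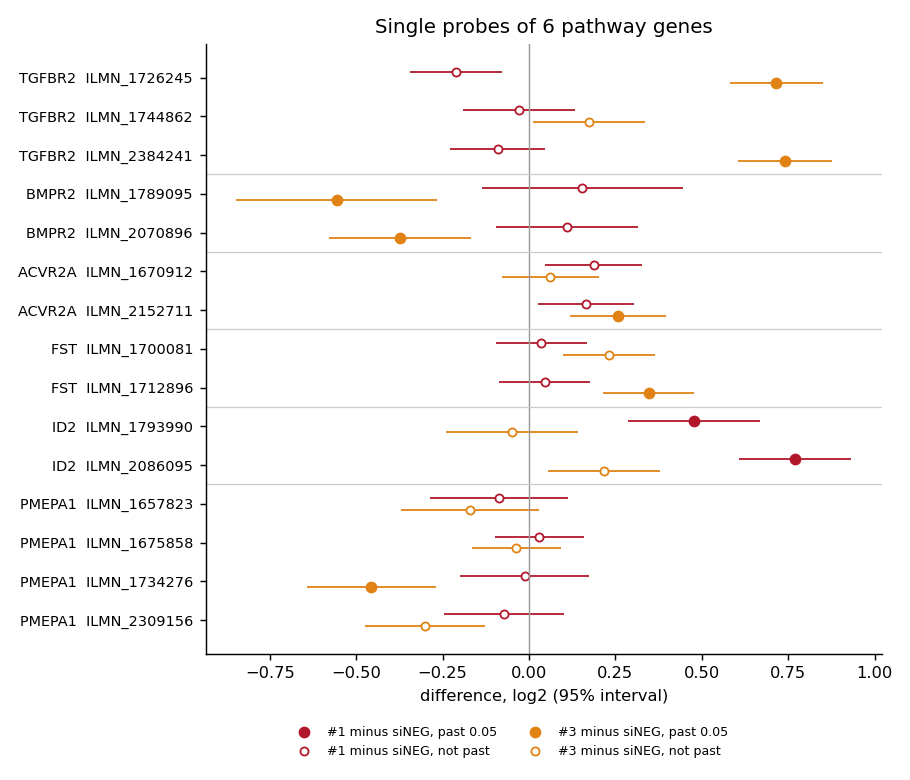
Differences on the log2 scale with 95% intervals (horizontal axis) for the single probes of 6 genes (vertical axis), with filled points for an adjusted p under 0.05 over all 47315 probes. The TGFBR2 probes stand at 0.72, 0.74 and 0.17 with siCITED1#3, and both ID2 probes stand to the right of 0 with siCITED1#1 (0.48 and 0.77).

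Of 128 other genes of the pathway, listed by role, 123 had a probe. The list held CITED1 itself, which both siRNAs target. Its lower calls with each siRNA, and with both pooled, are part of the counts for this list. With siCITED1#1, 25 passed (20.3%), 12 higher and 13 lower, against 9.84% of all genes, and 13 of these were among the 33 measured targets, 8 higher and 5 lower. With siCITED1#3, 8 passed (6.5%), 6 higher and 2 lower, against 4.35% of all genes, and between the siRNAs 24 passed (19.5%), 10 higher and 14 lower with siCITED1#1, against 12.4%. CITED2, a relative of CITED1, was 0.22 ± 0.06 higher with siCITED1#1 (adjusted p = 0.0315, and 0.06 to 0.111 without siNEG replicate 3 or 4 or siCITED1#1 replicate 1, 2 or 3). CITED4 and the acetyltransferases CREBBP and EP300, to which CITED proteins bind, did not pass with either siRNA, and differed by 0.17, -0.02 and -0.04 with siCITED1#1 and by 0.14, 0.03 and 0.05 with siCITED1#3.

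Of the secreted antagonists in the wider list, NBL1 and FSTL1 were higher with siCITED1#3, as FST was. NBL1, which binds BMPs, stood at -0.15, -0.25, -0.16 and -0.26 with siCITED1#1, at 0.29, 0.33, 0.37 and 0.35 with siCITED1#3 and at -0.10, -0.19, -0.17 and -0.04 with siNEG. All siCITED1#3 arrays were above the rest, and NBL1 was 0.46 ± 0.05 higher than in siNEG cells (1.38-fold, adjusted p = 2.47e-05), while with siCITED1#1 it differed by -0.08 ± 0.05 (adjusted p = 0.428). FSTL1, a follistatin-like secreted protein, ran from -0.13 to -0.0047 with siCITED1#1, from 0.15 to 0.39 with siCITED1#3 and from -0.41 to -0.14 with siNEG, and rose by 0.50 ± 0.07 with siCITED1#3 (1.41-fold, adjusted p = 0.00019). The siCITED1#1 arrays of FSTL1 lay between the other groups, at 0.16 ± 0.07 above siNEG (adjusted p = 0.16). Of the 11 measured antagonists in the wider list, 2 passed with siCITED1#3, both higher (18.2%, against 4.35% of all genes), and 1 with siCITED1#1, lower (9.09%, against 9.84%).

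Targets in the wider list moved in both directions. CCN2, a matricellular growth factor induced by TGF-beta, stood at -0.55, -0.47, -0.31 and -0.36 with siCITED1#1, at 0.25, 0.41, 0.08 and 0.37 with siCITED1#3 and at 0.12, 0.16, 0.28 and 0.02 with siNEG. It was 0.57 ± 0.08 lower with siCITED1#1 (1.48-fold, adjusted p = 7.49e-05) and 0.13 ± 0.08 higher with siCITED1#3 (adjusted p = 0.477), and all siCITED1#1 arrays lay below the rest. COL1A2, a chain of type I collagen, was 0.45 ± 0.06 higher with siCITED1#3 (1.37-fold, adjusted p = 0.000225) and 0.15 ± 0.06 lower with siCITED1#1, which did not pass (adjusted p = 0.151). ACTA2, smooth muscle actin, ran from 0.12 to 0.25 with siCITED1#1, from -0.0045 to 0.32 with siCITED1#3 and from -0.49 to -0.19 with siNEG. The siNEG arrays of ACTA2 were below all siCITED1 arrays, and the rise was alike in size, 0.54 ± 0.08 with siCITED1#1 (adjusted p = 0.000117) and 0.55 ± 0.08 with siCITED1#3 (adjusted p = 0.000294).

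AXL, a receptor tyrosine kinase of the invasive melanoma state, fell with both siRNAs, by 0.56 ± 0.05 with siCITED1#1 (1.48-fold, adjusted p = 1.34e-06) and by 0.21 ± 0.05 with siCITED1#3 (1.15-fold, adjusted p = 0.0288). The siCITED1#3 call was lost without siNEG replicate 1 or 4 or siCITED1#3 replicate 1, 2 or 4, at adjusted p-values of 0.0682 to 0.0934. WNT5A, which codes for a non-canonical Wnt ligand, is one of the genes by which the paper describes the invasive state. WNT5A stood at 0.41, 0.55, 0.75 and 0.56 with siCITED1#1, at -0.31, -0.11, -0.53 and -0.82 with siCITED1#3 and at -0.90, 0.31, 0.25 and -0.15 with siNEG. The siNEG arrays spread widely, with replicate 1 lowest. WNT5A was 0.69 ± 0.20 higher with siCITED1#1 (adjusted p = 0.0354, and 0.0618 to 0.105 without siNEG replicate 1 or 4 or siCITED1#1 replicate 2, 3 or 4) and 1.01 ± 0.20 higher with siCITED1#1 than with siCITED1#3 (adjusted p = 0.00227). ZFYVE16, or endofin, an endosomal protein that binds SMADs, was 0.56 ± 0.11 higher with siCITED1#1 (1.48-fold, adjusted p = 0.00232), with siCITED1#1 arrays from -0.01 to 0.65 against -0.31 to 0.03 for siNEG, and 0.02 ± 0.11 higher with siCITED1#3 (adjusted p = 0.962).

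**Figure D4:**
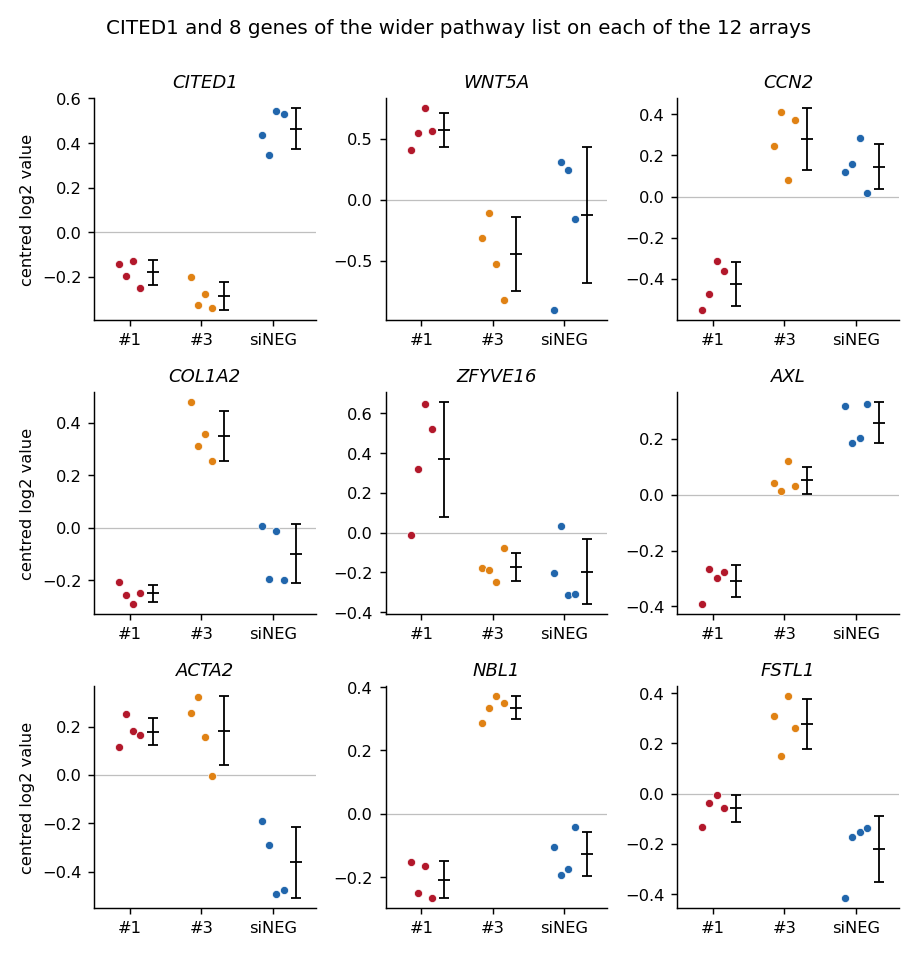
Centred log2 values (vertical axis, own scale per panel) of CITED1 and 8 genes of the wider pathway list on the 4 arrays each of siCITED1#1, siCITED1#3 and siNEG, with means and SDs as bars. CITED1 is lower in both siRNA groups than in siNEG, ACTA2 is higher in both, NBL1 is higher with siCITED1#3 (0.29 to 0.37) and CCN2 is lower with siCITED1#1 (-0.55 to -0.31).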

How the data were processed

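RNA of 12 wells of HT144 cells was measured on Illumina HT-12 arrays. The authors quantile normalized the raw signal, removed control probes in BASE, and took log2 values that were centred by gene and by sample in MeV, and these deposited log2 values were used with no further scaling and no filter on low values. For background correction and detection calls, nothing is given in the sources used here. The 47315 probes had means within 1.33e-07 of 0 over the arrays. Base 2 rests on the methods, as centred values cannot show it. Precision is set by how many arrays a group has.

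Probes were named through the platform annotation and a current gene table (30105 with 1 symbol, 8 with several, 17202 with none). The probes of a gene were averaged and 20045 genes entered the linear models of limma 3.58.1 (R 4.3.3, lmFit and eBayes), with 3 groups, or with 8 siCITED1 against 4 siNEG arrays as in the published design. All adjusted p-values in the text are from limma, two-sided, by Benjamini-Hochberg over all genes at 0.05, and over all probes where single probes are named. Errors of differences are SEs and errors of group values SDs. The fits were tested on simulated data. Exact permutation tests are two-sided.

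Replicate numbers were not used as pairs, since deviations at the same number correlated at -0.0742 to 0.132 over 12 pairs. Genes that passed in any comparison are given per array, up to 12. From the wider list, CITED1, its relatives and partners and the 8 called genes with the widest difference are named. The members and lists were chosen with earlier results of these data known.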

Additional observations from a re-analysis of the deposited data

Results flagged for a closer look

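The values of 5 of 108 groups of 4 arrays held 1 array far from the other 3, and chance alone marks about 1 in 20 such groups. These were TGFB1 in siCITED1#1 replicate 4 (0.03), ID2 in siCITED1#3 replicate 4 (-0.28), and ACVR1 (0.03), BAMBI (0.03) and SKIL (-0.09) in siNEG replicate 2. Among them only ID2 passed a test, and both its calls held without siCITED1#3 replicate 4.

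The siRNAs gave different effects on 9 genes, by the test of siCITED1#1 minus siCITED1#3 itself. The differences were -0.65 for TGFBR2, -0.50 for TGFBR3, -0.34 for ENG, -0.29 for TGFB3, -0.28 for SMAD3 and -0.25 for FST, and 0.60 for BMPR2, 0.54 for ID2 and 0.21 for PMEPA1, on the log2 scale. Both siRNAs lowered CITED1 RNA in the same cells, and the siCITED1#1 and siCITED1#3 arrays were set against the same siNEG arrays. The paper's protein blot showed weaker silencing with siCITED1#3, and the part of this in the differences was not tested.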

How the results depend on the processing

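Over 342 repeats of the calls of single genes under other settings, 283 kept direction and side of the threshold, 59 kept direction only and 0 reversed. The calls of TGFBR2, TGFBR3, FST and ID2, and those of BMPR2, ENG, TGFB3 and SMAD3 between the siRNAs, held in each of the 18 settings tried. In 12 of these settings 1 array was left out, so they share most of their arrays. Another setting took the probe of the gene with the smallest p, which favours a call. With both siRNAs pooled, the count of the 36 genes called was 0, against 2 at a threshold of 0.10. It was 1 (ID3) after scaling the arrays to a common spread and 5 with averaged siRNA differences. Of all genes, 1.92% passed in the main fit, 2.02% after scaling and 5.76% with averaged differences. Counts here without such a share cannot be set against all genes. With siCITED1#1 the count of the 36 was 3, and 6 at 0.10. With siCITED1#3 it was 7, and 4 in a fit to the 8 arrays of that pair alone. Leaving out 1 array gave counts of 0 to 1 for both siRNAs (1 without siCITED1#1 replicate 2 or 4), 1 to 4 with siCITED1#1 (1 without siNEG replicate 4 or siCITED1#1 replicate 4), 3 to 7 with siCITED1#3 (3 without siCITED1#3 replicate 4, and 4 without siNEG replicate 2 or 3, siCITED1#1 replicate 3 or siCITED1#3 replicate 3) and 8 to 10 between the siRNAs. In the wider list the pooled count was 4 (3.25%, against 1.92% of all genes). It was 13 with averaged siRNA differences, where 5.76% of all genes passed. When 1 array was left out it was 2 to 5 (2 without siNEG replicate 2 or 4). The siCITED1#3 count was 8, against 6 to 13 when 1 array was left out. The 13 were reached without siNEG replicate 1, where 4.77% of all genes passed. For the wider list, the settings other than the most variable probe per gene and the replicate block were chosen after seeing the data. With the replicate block the counts of the 36 genes were 3 with siCITED1#1, 6 with siCITED1#3 and 8 between the siRNAs, so none moved by over 1.5 times, but the genes were not all the same. ACVR2A with siCITED1#1, TGFB3 and PMEPA1 with siCITED1#3 and PMEPA1 between the siRNAs no longer passed, while SKI with siCITED1#1 and ENG with siCITED1#3 did. The cause of these shifts was not tested. Signal over background cannot be read from centred values, so a small difference in a dim probe cannot be told from one in a bright probe.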

Other observations

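The genes in this paragraph were picked after their values were seen, from those of the wider list that passed the test. Of the 13 targets called with siCITED1#1, the 8 that rose were WNT5A, ACTA2, SNAI2 (0.38), ID4 (0.43), the homeobox gene MSX2 (0.33), the Notch effector HEY1 (0.26), MYC (0.27) and the kinase gene NUAK1 (0.25). The 5 that fell were CCN2 and AXL, the matricellular gene CCN1 (-0.42), TSC22D1 (-0.31) and the tropomyosin gene TPM1 (-0.21). The BMP ligand genes BMP6 (-0.27) and BMP8B (-0.25) and TWSG1, a secreted BMP binding protein (-0.25), were lower with siCITED1#1, and RGMB, a BMP co-receptor, was higher (0.41).

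Both genes below were also picked after their values were seen, and each passed with either siRNA against the same siNEG arrays. SNAI2, a repressor of epithelial genes that is also used in melanocytes, was 0.38 ± 0.09 higher with siCITED1#1 and 0.41 ± 0.09 higher with siCITED1#3. TGIF2, a repressor of SMAD targets, was called in opposite directions, 0.20 lower with siCITED1#1 and 0.23 higher with siCITED1#3, and the difference between the siRNAs was -0.43.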
